A study of Homo sapiens with 3 samples.

Results

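The genes described here are 10 members of the epidermal growth factor (EGF) receptor system, namely the receptors EGFR, ERBB2 and ERBB3 and the ligands HBEGF, AREG, EREG, TGFA, BTC, EPGN and NRG1. They were taken by symbol from the expression tables of 3 cultured hepatocellular carcinoma (HCC) cell lines, with 1 mRNA sequencing library each. Of the 10 genes, 9 were listed in every library and EPGN was listed in none, out of 16149 genes listed in any library. The parent was HCCLM3, which the labels call low in metastatic ability and which carries red fluorescent protein by the study's methods, where it is given a high metastatic potential. Subclone 1 was labelled as more metastatic and specific to lung, and subclone 2 as able to reach lung and celiac lymph node. By the study's methods, its subclones were grown from single cells out of lung or lymph node metastases of parental xenografts in nude mice. If both subclone libraries come from such lines, each subclone is 1 clone, while the parent is a mixed population. All 3 lines were kept in DMEM culture, and neither subclone library is matched to a clone name in the labels.

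The EGF receptors are tyrosine kinases of the cell surface that pair with each other when a ligand binds. EGFR binds HBEGF, AREG, EREG, TGFA, BTC, EPGN and EGF, whereas ERBB3 binds neuregulins such as NRG1, has little kinase activity of its own and signals through a partner. ERBB2 has no known ligand and is the preferred partner of the other receptors. The ligands are made as membrane proteins and are cut free by proteases of the ADAM family. In liver, EGFR and its ligands are known for their part in regeneration.

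The library totals, read back from the RPKM (reads scaled by the length of the gene and by the size of the library), were 4488825 reads for the parent, 4609696 in subclone 1 and 4725150 in subclone 2. With 1 library per cell line there was no replicate error and no test between cell lines. The 95% intervals below are exact intervals on the reads of each gene and cover counting error only. A log2 ratio is that of RPKM plus 0.1, whereas a fold is the plain ratio of RPKM. Among the 8 hepatocyte markers checked, the transcription factors HNF4A and FOXA2 had 11.7 to 22.0 RPKM in the 3 lines, and ALB, which encodes albumin, had 2.46 RPKM in the parent, 49.5 RPKM in subclone 1 and 68.8 RPKM in subclone 2. TTR and SERPINA1, both abundant in hepatocytes, were below 0.5 RPKM throughout. The epithelial keratins KRT8 and KRT18 were at 953 RPKM or more in each line, EPCAM was at or below 0.367 RPKM and CDH1 went from 2.08 RPKM in the parent to 8.97 and 12.3 RPKM in the subclones.

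ERBB3 stood out among the members in both subclones, and NRG1 did so in subclone 2. In subclone 1, NRG1 and TGFA were lower by similar folds of 2.02 and 2.05. The mRNA of the receptor ERBB3 exceeded the parental level in both subclones, and that of its ligand NRG1 fell short of it. EGFR was also higher in both subclones, by less than 2-fold, and the EGFR ligands EREG and TGFA were lower. Among the 9 members with a mean level of at least 1 RPKM, counted on the log2 ratio with its pseudocount, 1 exceeded the parent by 2-fold or more in subclone 1 (ERBB3), where 4.9% of the 11370 genes at this level were. In the same comparison 1 member was at least 2-fold lower (NRG1), against 1.82% of all genes, and TGFA passed 2-fold only as a plain ratio of RPKM. In subclone 2, 2 members exceeded the parent by 2-fold or more (ERBB3 and HBEGF, against 5.33% of all genes) and 2 were at least 2-fold lower (NRG1 and TGFA, against 2.16%). Between the subclones, 2 members were at least 2-fold higher in subclone 2 (ERBB3 and HBEGF, against 1.42% of all genes) and 0 were at least 2-fold lower (against 1.39%). The median log2 ratio of the 9 members was -0.53 in subclone 1 and -0.26 in subclone 2 over the parent, beside 0.0043 and 0.037 for all genes.

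**Figure D1:**
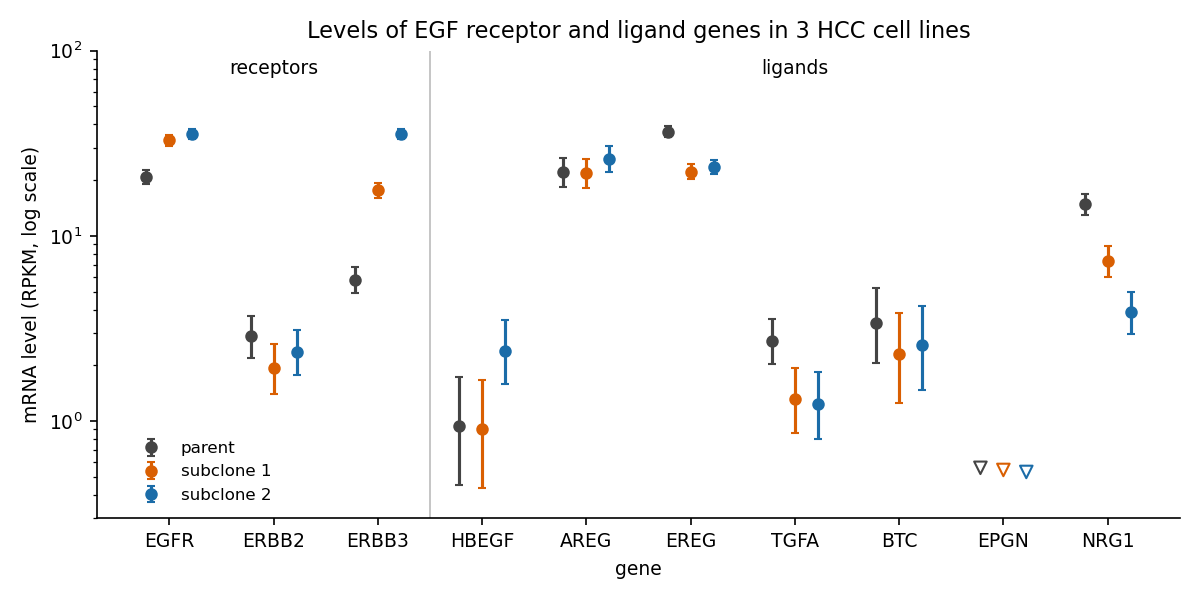
mRNA level of each gene in RPKM on a log scale, with points for the 3 libraries and bars for the 95% counting interval. Open triangles for EPGN mark the level that 3 reads would give, since the gene was not listed. ERBB3 climbs from 5.80 to 35.4 RPKM across parent, subclone 1 and subclone 2, and NRG1 descends from 14.8 to 3.88 RPKM.

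ERBB3, which lies on chromosome 12, had 5.80 RPKM in parental cells (150 reads, interval 4.91 to 6.80), 17.6 RPKM in subclone 1 cells (468 reads, interval 16.1 to 19.3) and 35.4 RPKM in subclone 2 cells (964 reads, interval 33.2 to 37.7). The level was lowest in the parent and highest in subclone 2, and none of the 3 intervals overlapped. ERBB3 exceeded its parental level 3.04-fold in subclone 1 (2.52 to 3.68) and 6.11-fold in subclone 2 (5.14 to 7.30), which placed it at percentiles 98.0 and 99.3 of all genes. Subclone 2 exceeded subclone 1 by 2.01-fold (1.80 to 2.25). Its log2 ratio between the subclones lay between 0.95 and 1.13 under other pseudocounts and scalings, on both sides of 2-fold. This order was shared by the summed level of the 8 hepatocyte markers, which was 37.6 RPKM in the parent, 89.6 RPKM in subclone 1 and 116 RPKM in subclone 2, with 1 marker (TTR) at 0 in parent and subclone 1 and 0 markers at 0 in subclone 2. ALB made up most of the difference in this sum, while FOXA2 had 20.5, 21.8 and 22.0 RPKM in the same order. The part of these markers in the ERBB3 result was not tested. A protein-coding gene on the same strand, AC034102.2, overlaps ERBB3 in the GENCODE annotation and was not listed. Reads of AC034102.2 may be counted with ERBB3.

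EGFR, on chromosome 7, had 20.7 RPKM in parental cells (523 reads, interval 19.0 to 22.6), 32.9 RPKM in subclone 1 cells (853 reads, interval 30.8 to 35.2) and 35.6 RPKM in subclone 2 cells (944 reads, interval 33.3 to 37.9). Both subclones lay above the parent without overlap, by 1.59-fold (1.42 to 1.77) and 1.71-fold (1.54 to 1.91). The subclones were not distinguishable at this depth, with a ratio of 1.08 (0.983 to 1.19). An antisense transcript, EGFR-AS1, overlaps the gene in the GENCODE annotation and was not listed, and without a statement on strand its reads cannot be told from those of EGFR.

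ERBB2, on chromosome 17, was the scarcest of the 3 receptors in every line, with 2.87 RPKM in parental cells (62 reads, interval 2.20 to 3.68), 1.94 RPKM in subclone 1 cells (43 reads, interval 1.40 to 2.61) and 2.37 RPKM in subclone 2 cells (54 reads, interval 1.78 to 3.10). The 3 intervals overlapped. The fold over the parent was 0.675 (0.447 to 1.01) in subclone 1 and 0.827 (0.564 to 1.21) in subclone 2, and such a difference was not detectable with these reads. The ERBB2 locus overlaps PGAP3 and MIEN1 on the opposite strand. MIEN1, listed as C17orf37, had 67.8 to 71.3 RPKM in the 3 lines, and reads of these genes may be counted with ERBB2.

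**Figure D2:**
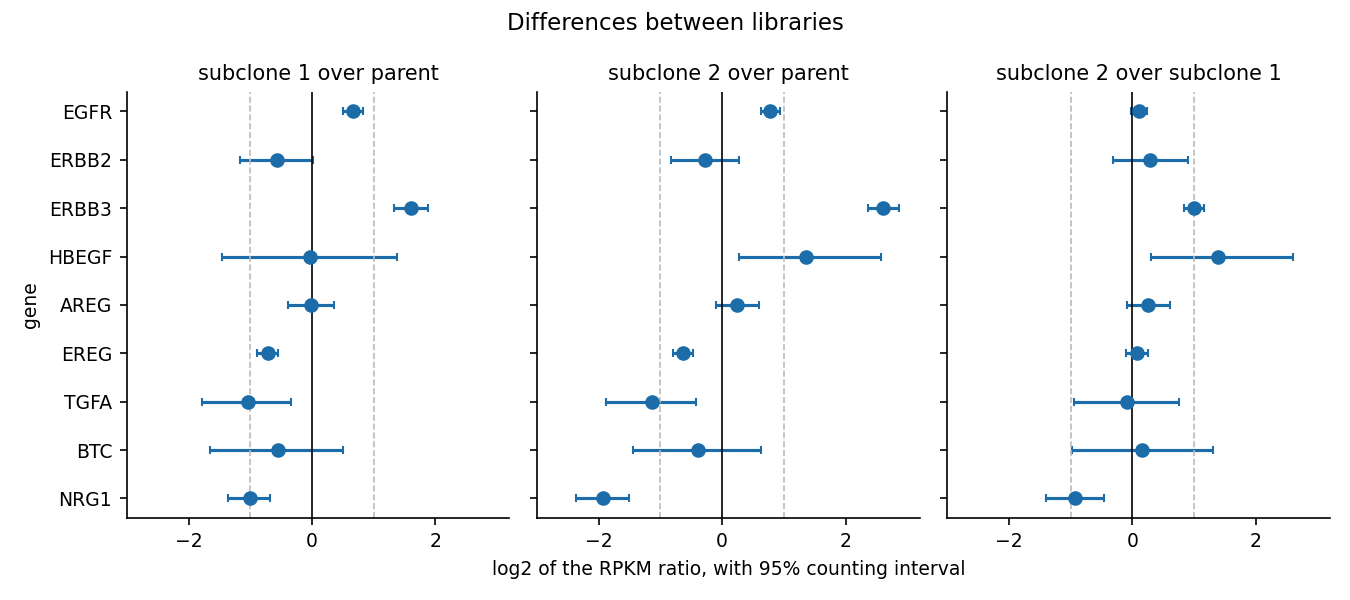
log2 of the RPKM ratio of each gene in the 3 comparisons, with bars for the 95% counting interval. The solid line marks no difference and the dashed lines 2-fold. The ERBB3 interval lies right of 0 and the NRG1 interval left of 0 in all 3 panels, while those of ERBB2, AREG and BTC cross 0 in each.

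The balance between the receptors therefore differed between the lines. Within the parent, ERBB3 was 0.279 times EGFR (0.231 to 0.336). This ratio was 0.534 in subclone 1 (0.476 to 0.599) and 0.995 in subclone 2 (0.908 to 1.09), where the mRNA levels of the receptors could not be distinguished. Against ERBB2, its usual partner, ERBB3 was 2.02-fold higher in the parent (1.49 to 2.76), 9.09-fold higher in subclone 1 (6.65 to 12.7) and 14.9-fold higher in subclone 2 (11.3 to 19.999). EGFR made up 70.5% of the summed RPKM of the 3 receptors in parental cells, 62.8% in subclone 1 and 48.5% in subclone 2. The summed level itself was 29.4, 52.5 and 73.3 RPKM in the same order.

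NRG1, on chromosome 8, encodes a neuregulin that binds ERBB3 and ERBB4. It had 14.8 RPKM in parental cells (214 reads, interval 12.9 to 16.9), 7.34 RPKM in subclone 1 cells (109 reads, interval 6.03 to 8.86) and 3.88 RPKM in subclone 2 cells (59 reads, interval 2.95 to 5.002). The order was the reverse of that of ERBB3, again with no overlap between the intervals. NRG1 lay 2.02-fold under its parental level in subclone 1 (1.59 to 2.56) and 3.82-fold under it in subclone 2 (2.85 to 5.18), at percentiles 1.81 and 0.589 of all genes. Its log2 ratio of -1.002 in subclone 1 lies at the 2-fold limit, which -0.92 with a pseudocount of 1 did not reach. In subclone 2 it was 1.89-fold lower than in subclone 1 (1.37 to 2.65).

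Set against its receptor within each library, NRG1 was 2.55 times ERBB3 in the parent (2.06 to 3.17), 0.417 times in subclone 1 (0.335 to 0.515) and 0.110 times in subclone 2 (0.0828 to 0.143). In the parent the ligand mRNA exceeded the receptor mRNA, and in both subclones the receptor mRNA exceeded that of the ligand. ERBB4, the other neuregulin receptor, was listed in no library, and 3 reads would have given 0.0551 RPKM in the parent over its longest GENCODE transcript.

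**Figure D3:**
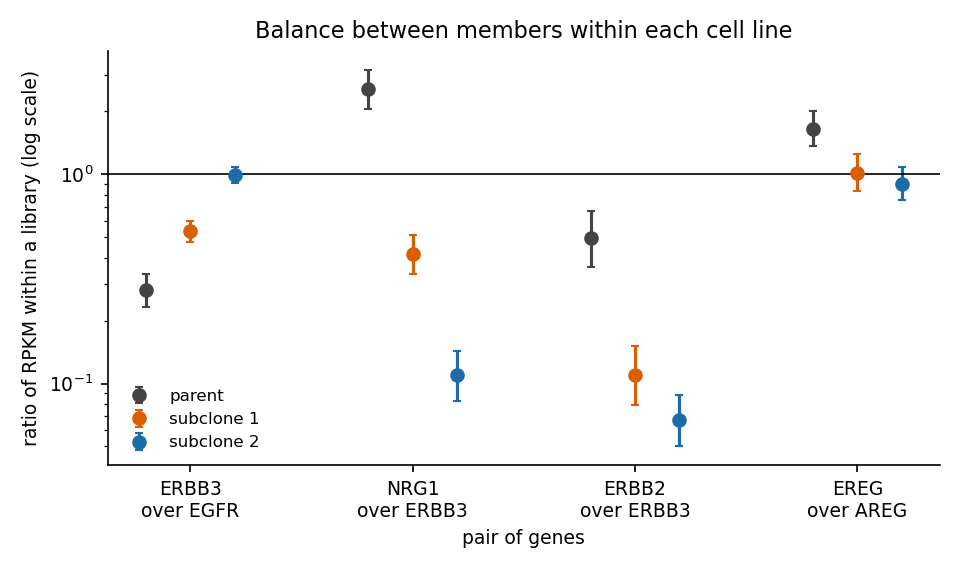
Ratio of the RPKM of 2 genes within each library on a log scale, with bars for the 95% counting interval and a line at equal levels. ERBB3 over EGFR approaches 1 in subclone 2, while NRG1 over ERBB3 passes from 2.55 in the parent to 0.110 in subclone 2.

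Among the EGFR ligands, EREG (epiregulin) and AREG (amphiregulin) held nearly all of the mRNA. EREG had 36.6 RPKM in parental cells (760 reads, interval 34.0 to 39.3), 22.3 RPKM in subclone 1 cells (475 reads, interval 20.3 to 24.4) and 23.5 RPKM in subclone 2 cells (514 reads, interval 21.5 to 25.6). The parent lay above both subclones without overlap, by 1.64-fold (1.46 to 1.85) and 1.56-fold (1.39 to 1.74). The intervals of the subclones overlapped, with a ratio of 1.06 (0.930 to 1.20).

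AREG had 22.1 RPKM in parental cells (126 reads, interval 18.4 to 26.3), 21.9 RPKM in subclone 1 cells (128 reads, interval 18.2 to 26.0) and 26.2 RPKM in subclone 2 cells (157 reads, interval 22.2 to 30.6). All 3 intervals overlapped, and the fold over the parent was 0.989 (0.767 to 1.28) in subclone 1 and 1.18 (0.930 to 1.51) in subclone 2. The hg19 assembly, which the submitters' processing notes name, carries a near-identical copy of this gene known as AREGB. That copy was not listed, and how reads matching both copies were counted is not given in the sources used here, so the level of AREG is uncertain. By the listed levels, EREG stood above AREG in the parent, by 1.66-fold (1.37 to 2.01). The intervals of this and the next ratios do not cover the uncertain level of AREG. EREG and AREG were not distinguishable in subclone 1, with a ratio of 1.02 (0.836 to 1.25), nor in subclone 2, with a ratio of 0.898 (0.75 to 1.08). Together with HBEGF, TGFA and BTC, these ligands summed to 65.7 RPKM in the parent, 48.7 RPKM in subclone 1 and 55.9 RPKM in subclone 2. EREG made up 55.7%, 45.8% and 42.1% of this sum in the same order, and AREG 33.6%, 44.9% and 46.8%.

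EPGN, EREG, AREG and BTC lie next to each other on chromosome 4, in this order among the protein-coding genes of RefSeq (GRCh38.p14). The sequences are the 100 bases just before the start of each gene on its own strand, from RefSeq on that build. They are shown to set the starts of neighbouring ligand genes side by side. The windows are chr4:74308370-74308469 (EPGN, plus strand), chr4:74365045-74365144 (EREG, plus strand), chr4:74445036-74445135 (AREG, plus strand) and chr4:74794524-74794623 (BTC, minus strand). Capitals mark 3 motifs, read on either strand. The TATA box was searched as TATAAA, and the GC box as the letters GGGCGG. The cAMP response element was searched as TGACGTCA.
EPGN: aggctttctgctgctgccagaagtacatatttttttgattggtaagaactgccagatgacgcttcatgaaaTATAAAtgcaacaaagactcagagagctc
EREG: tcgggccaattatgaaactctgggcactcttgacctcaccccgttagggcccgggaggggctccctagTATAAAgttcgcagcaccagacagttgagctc
AREG: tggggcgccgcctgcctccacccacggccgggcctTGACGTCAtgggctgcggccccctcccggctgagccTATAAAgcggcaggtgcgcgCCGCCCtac
BTC: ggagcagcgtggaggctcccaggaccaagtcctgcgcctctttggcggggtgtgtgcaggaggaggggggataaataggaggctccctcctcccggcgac

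TATAAA began 29 bases before the start in EPGN, 32 in EREG and 29 in AREG, and was found in the 250 bases before the start of no other member among the 8 with a promoter in the table. Of all 35116 promoters of that length, 10.7% held it. The cAMP response element lay 65 bases before the start of AREG only, against 1.65% of all promoters, and the GC box was found in EGFR, HBEGF, AREG and TGFA, against 42.6%. The AP-1 site TGAGTCA, also searched on both strands, was in 0 of the 8, which do not include ERBB3 and NRG1, against 4.20%. These matches describe the letters of the reference and not a bound factor. AREG and EREG, which both hold TATAAA, had the highest levels of all ligands in every line. EPGN, which holds TATAAA too, was not listed and may not have been counted. A link between this motif and the level was not tested.

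On the side of EPGN and EREG lie MTHFD2L and then chemokine genes. CXCL5, which encodes a neutrophil chemokine, had 38.4 RPKM in the parent, 105 RPKM in subclone 1 and 217 RPKM in subclone 2. CXCL2 had 2.53, 5.27 and 5.32 RPKM in the same order, from 14, 30 and 31 reads. CXCL3 had 1.34, 2.42 and 6.17 RPKM, from 7, 13 and 34 reads. The ratio of CXCL3 in subclone 1 over the parent was 1.81 (0.671 to 5.35), which included no difference, whereas the intervals of the other ratios of these chemokine genes over the parent lay above 1. MTHFD2L, which lies between CXCL2 and the ligand genes, had 0.939, 0.823 and 0.803 RPKM, with overlapping intervals. On the other side, PARM1 was at or below 0.0879 RPKM, RCHY1 at 2.18 to 2.69 RPKM, THAP6 at 3.88 to 5.17 RPKM and G3BP2 at 52.4 to 59.9 RPKM. C4orf26, on that same side, and PPBPL2, between CXCL3 and CXCL2 on the chemokine side, did not exceed 0.330 RPKM.

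TGFA, on chromosome 2, encodes transforming growth factor alpha. It had 2.72 RPKM in parental cells (52 reads, interval 2.03 to 3.56), 1.32 RPKM in subclone 1 cells (26 reads, interval 0.864 to 1.94) and 1.24 RPKM in subclone 2 cells (25 reads, interval 0.803 to 1.83). The parent lay above both subclones without overlap, and the subclones overlapped. TGFA lay 2.05-fold under its parental level in subclone 1 (1.26 to 3.43) and 2.19-fold under it in subclone 2 (1.33 to 3.68). With the pseudocount the log2 ratios were -0.99 and -1.07, so that the first falls just short of 2-fold and the second passes it. With a pseudocount of 1 the second was -0.73.

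BTC (betacellulin) had 3.37 RPKM in parental cells (20 reads, interval 2.06 to 5.20), 2.30 RPKM in subclone 1 cells (14 reads, interval 1.26 to 3.85) and 2.56 RPKM in subclone 2 cells (16 reads, interval 1.46 to 4.16). The intervals overlapped in all 3 lines, and the folds over the parent of 0.682 (0.319 to 1.42) and 0.760 (0.368 to 1.54) left no detectable difference. The reads of BTC share a divisor and may be understated, which would make these intervals too wide.

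HBEGF, on chromosome 5, encodes heparin-binding EGF-like growth factor. Its level was 0.936 RPKM in parental cells (10 reads, interval 0.449 to 1.72), 0.911 RPKM in subclone 1 cells (10 reads, interval 0.437 to 1.68) and 2.40 RPKM in subclone 2 cells (27 reads, interval 1.58 to 3.49). Subclone 2 was 2.57-fold above the parent (1.20 to 5.94) and 2.63-fold above subclone 1 (1.24 to 6.10), at percentiles 96.6 and 99.3 of all genes. Parent and subclone 1 could not be told apart, with a fold of 0.974 (0.364 to 2.61). The single-library intervals of subclone 2 and the parent overlapped, and with 10 to 27 reads the size of the difference is poorly known. With a pseudocount of 1 the log2 ratio of subclone 2 was 0.81 over the parent and 0.83 over subclone 1, under 2-fold in both.

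The study measured candidate genes by real-time PCR in its clones, and HBEGF is the member with primers in its list. HBEGF was not among the genes it picked for mRNA more than 1.5-fold above parental cells in most clones. The primer pair is shown because it fixes which part of the mRNA such a measurement reads.
HBEGF forward: atcgtggggcttctcatgttt
HBEGF reverse: ttagtcatgcccaacttcacttt

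Both primers matched 1 GENCODE transcript, HBEGF-201, and no other gene, without mismatch. The product of 86 bases runs from exon 4 to exon 5 of 6 within the coding sequence, on chromosome 5 from 140334686 to 140335894 of GRCh38 on the minus strand. The forward primer lies in exon 4 and the reverse primer in exon 5.

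EPGN (epigen) was not listed in any line. Over its longest GENCODE transcript, 3 reads would have given 0.559 RPKM in parental cells, 0.544 RPKM in subclone 1 and 0.531 RPKM in subclone 2. The annotation behind the tables is not given in the sources used here, so that EPGN may not have been counted at all. Of the other genes of the family, NRG2 and NRG3 were listed at no level either. EGF, the founding ligand, had 1.27 RPKM in parental cells (32 reads, interval 0.871 to 1.80), 1.24 RPKM in subclone 1 cells (32 reads, interval 0.848 to 1.75) and 0.869 RPKM in subclone 2 cells (23 reads, interval 0.551 to 1.30). NRG4 had 0.812, 0.692 and 1.06 RPKM, from 8, 7 and 11 reads. The intervals of EGF and of NRG4 overlapped between all lines.

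The order of the members changed with these differences. In the parent EREG led with 36.6 RPKM, followed by AREG and EGFR, which did not differ beyond their intervals, and then by NRG1 and ERBB3. In subclone 1 EGFR led with 32.9 RPKM, and EREG, AREG and ERBB3 followed with each interval overlapping the next. In subclone 2 EGFR and ERBB3 led with overlapping intervals, above AREG and EREG, whose intervals also overlapped. The places of AREG rest on its listed level, which is uncertain. BTC, ERBB2, TGFA and HBEGF stayed below 3.5 RPKM in every line. Among the genes listed in each library, ERBB3 was at or above 48.1% in parental cells, 72.5% in subclone 1 and 85.2% in subclone 2.

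**Figure D4:**
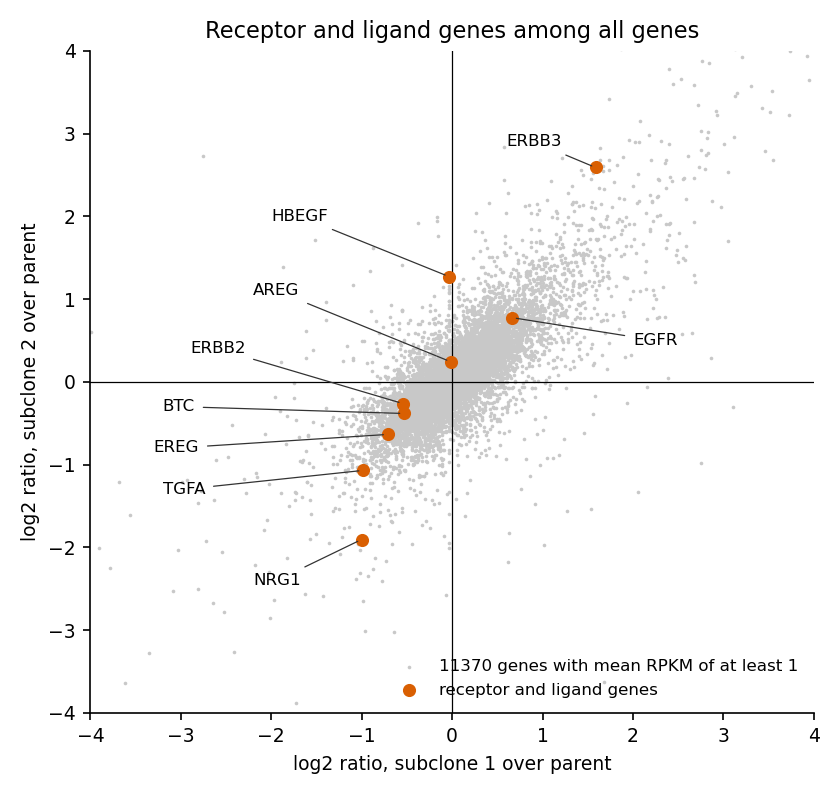
log2 ratio of subclone 1 over the parent (horizontal) and of subclone 2 over the parent (vertical) for 11370 genes in grey, of which 64 lie outside the plotted range, with the 9 receptor and ligand genes in orange. ERBB3 lies at 1.59 and 2.59, NRG1 at -1.002 and -1.91, and HBEGF at -0.03 and 1.27. The axes share the parent library.

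ERBB3 lay farthest from no change among the members, and its pair of log2 ratios over the parent was 1.59 and 2.59. The 5 genes nearest to it among the 11370, by the distance between the pairs of ratios, were CDHR2 (distance 0.076), LGALS4 (0.087), SCNN1A (0.091), TSPAN8 (0.098) and ITGA1 (0.14). This likeness rests on 3 libraries. CDHR2 had 2.17, 6.59 and 12.9 RPKM in the parent, subclone 1 and subclone 2. LGALS4, which encodes galectin-4, had 43.1, 138 and 262 RPKM in the same order.

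Beyond the members, 5 lists held the rest of the family, genes that release the ligands, carry the signal or restrain the receptors, and genes induced by growth factors. Of their 56 genes with a mean of at least 1 RPKM, 0 were at least 2-fold higher in any of the 3 comparisons, and 1 was at least 2-fold lower in each. Among all genes, 4.9%, 5.33% and 1.42% were higher and 1.82%, 2.16% and 1.39% lower in subclone 1 over the parent, subclone 2 over the parent and subclone 2 over subclone 1, so that 1 of 56 lower lies near the share of all genes. In subclone 1 over the parent this gene was TIMP3, an inhibitor of ADAM17, with 62.3 RPKM in the parent (59.2 to 65.5), 30.8 RPKM in subclone 1 (28.7 to 33.0) and 42.8 RPKM in subclone 2 (40.3 to 45.4). TIMP3 lay 2.02-fold under its parental level in subclone 1 (1.86 to 2.21) and 1.46-fold under it in subclone 2 (1.35 to 1.57). In the other comparisons it was ADAM12, a protease of the ADAM family, with 2.85 RPKM in the parent (2.25 to 3.56), 2.71 RPKM in subclone 1 (2.13 to 3.39) and 1.29 RPKM in subclone 2 (0.905 to 1.77). In subclone 2, ADAM12 lay 2.22-fold under its parental level (1.48 to 3.38).

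The 7 genes of ligand release had median log2 ratios of 0.10 in subclone 1 and 0.037 in subclone 2 over the parent, and the most abundant of them, ADAM9, had 147, 151 and 180 RPKM in the parent, subclone 1 and subclone 2. The 21 adaptors and transducers, from GRB2 to AKT2, had medians of 0.089 and 0.076, with 0 genes past 2-fold. Their most abundant member, the adaptor SHC1, had 126, 156 and 132 RPKM. The 10 genes that restrain the receptors had medians of 0.027 and 0.11. ERRFI1, a feedback inhibitor of EGFR and the most abundant of these, had 113, 110 and 106 RPKM, so that it was 0.977-fold (0.911 to 1.05) and 0.942-fold (0.878 to 1.01) the parent in the subclones. The 17 genes commonly induced by growth factors had medians of -0.26 and -0.22 over the parent. Within them the log2 ratios ran from -0.87 (ETV4) to 0.73 (FOS) in subclone 1 and from -0.70 (MYC) to 0.76 (FOS) in subclone 2. PHLDA1, the most abundant, had 98.2 RPKM in the parent, 79.1 RPKM in subclone 1 and 87.5 RPKM in subclone 2.

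**Figure D5:**
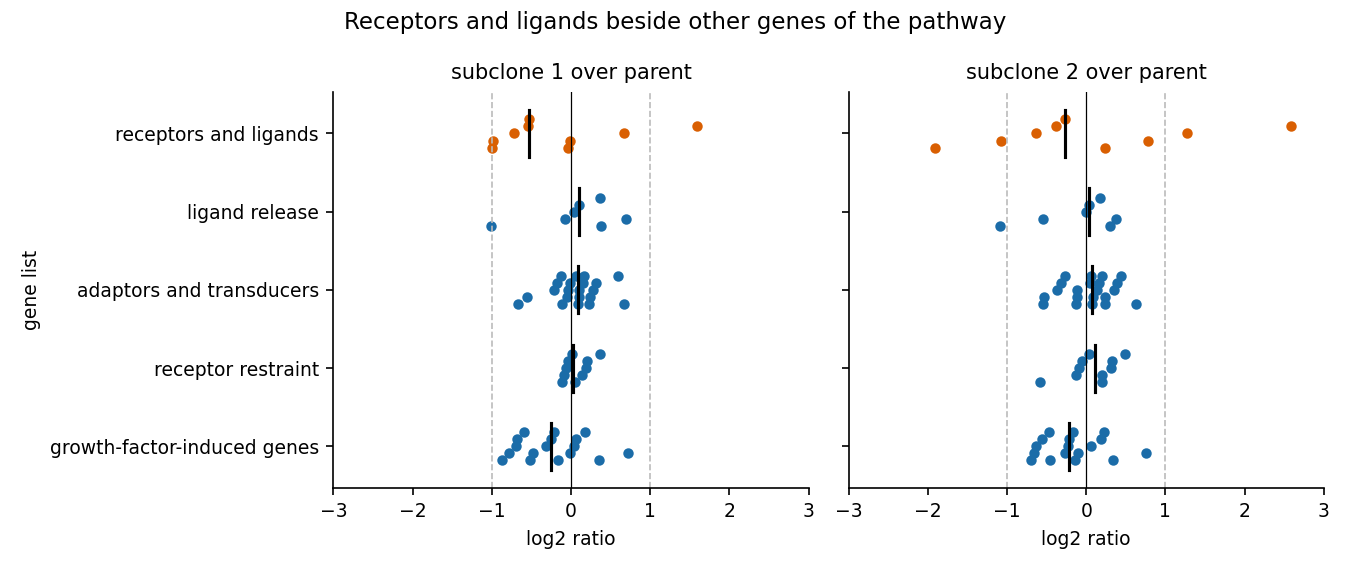
log2 ratios over the parent for the 9 receptor and ligand genes (orange) and for the genes of 4 other lists of the pathway (blue), 1 point per gene with a mean of at least 1 RPKM. Vertical ticks mark the median of each list and dashed lines 2-fold. The receptor and ligand genes run from -1.91 to 2.59 in subclone 2, and the other lists hold 1 gene past 2-fold in each panel.

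Among markers of other cell types, CD68, LUM and PECAM1 held most of the signal. The 6 fibroblast markers summed to 15.7 RPKM in parental cells, 31.1 in subclone 1 and 24.3 in subclone 2, of which LUM alone gave 10.1, 24.0 and 21.0 RPKM, with PDGFRB listed in none and COL1A1 at or below 0.403 RPKM. The 4 endothelial markers summed to 4.74, 11.8 and 7.56 RPKM, of which PECAM1 gave 3.33, 9.81 and 4.46 RPKM and KDR 1.36, 1.93 and 3.08 RPKM, with CDH5 and VWF at or below 0.0525 RPKM. Of the 4 leukocyte markers, CD68 gave 75.3 to 112 RPKM, while PTPRC was at or below 0.0836 RPKM and CD3E was not listed. LUM, PECAM1 and CD68 were highest in subclone 1, as was DCN with 0.773, 4.42 and 2.75 RPKM. KDR instead had the order of ERBB3 across the 3 lines. COL3A1 had 4.42, 2.21 and 0.463 RPKM, the order of NRG1. The part of these markers in the ERBB3 and NRG1 results was not tested.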

How the data were processed

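Messenger RNA of 3 cell lines was sequenced from TruSeq libraries, 1 library per line, so that no replicate error exists. The authors deposited RPKM values by Entrez number and symbol, listing genes above 0. The submitters' processing notes name hg19, while aligner, counting tool and annotation are not given in the sources used here. Genes missing from a library were set to 0. Reads were recovered as the smallest whole numbers (within 0.001) that fitted the RPKM in all libraries at a gene length between 0.5 times the median and 1.5 times the longest of its transcripts in GENCODE release 29, or multiplied to within 10% of a transcript, for 97.9% of the 11370 genes with a mean of at least 1 RPKM. At the recovered totals, 80.6% of 2000 genes had a length within 10% of a transcript, against 15.7% with totals multiplied by 0.5 and 58.0% with totals multiplied by 2. On simulated data for subclone 1 over the parent (15017 genes), 92.3% of resolved genes had the true reads. The simulation took the recovered lengths as true, so it cannot show how often those lengths are right. Intervals of levels are exact Poisson and those of ratios Clopper-Pearson, at 95%. Reads from PCR copies are not told apart, so that intervals cover counting error only.

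Genes named beyond the 10 members were the rest of the family, pathway genes past 2-fold, the most abundant of each list, the 5 nearest to the farthest member, the neighbours on chromosome 4, cell type markers and genes overlapping a member. ETV4, FOS and MYC, at the ends of a list, were chosen after values were seen, as were KDR and COL3A1 for their order. Members and lists were chosen with earlier results of these data known. A marker gene of the hepatocyte list is not reported here and was left out of its sums. Alternatives were pseudocounts of 0.01 and 1, 5 rescalings, other filters and 1.5-fold. RefSeq (GRCh38.p14) held 99.5% of the gene numbers, and its coordinates were used for promoters and for the order of genes on chromosome 4. Promoter entries were matched for 8 of the 10 members, and not for ERBB3 and NRG1. Python 3.11.15, numpy 2.4.6, pandas 2.3.3, scipy 1.17.1 and matplotlib 3.10.9 were used.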

Additional observations from a re-analysis of the deposited data

Results flagged for a closer look

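HBEGF lay slightly under the parent in subclone 1 and above it in subclone 2. On the log2 scale HBEGF differed from the parent by -0.03 in subclone 1, within counting error, and by 1.27 in subclone 2. Subclone 2 exceeded subclone 1 by 1.31 on this scale. AREG also had opposite signs, at -0.02 and 0.24, but its fold between the subclones of 1.20 (0.941 to 1.52) included no difference. The HBEGF value rests on 10 reads against 27 in single libraries, and the difference between the cell lines was not tested.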

How the results depend on the processing

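All 189 values of the 27 log2 ratios of members under 7 alternatives of pseudocount and scaling stayed inside the 95% counting interval of the reported ratio. Of the differences past 2-fold, 0 changed sign, which a pseudocount cannot do and rescalings this small could hardly do. ERBB3 over the parent ranged over 1.45 to 1.6 (subclone 1) and 2.42 to 2.65 (subclone 2), NRG1 from -1.13 to -0.92 and from -1.94 to -1.7, and HBEGF in subclone 2 from 0.81 to 1.35.

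Counts of members past 2-fold moved where a member sits near the limit or at a low level. With a mean of at least 5 RPKM they moved because the filter removed members, leaving 5 of the 9. Members lower in subclone 1 than in the parent numbered 2 in place of 1 with a pseudocount of 0.01, after division by ACTB and after division by GAPDH, and 0 with a pseudocount of 1 or division by the upper quartile. Members higher in subclone 2 than in subclone 1 numbered 1 in place of 2 after division by the upper quartile, with ratios centred on their median, with sums made equal or with a mean of at least 5 RPKM, and 0 with a pseudocount of 1. In subclone 2 over the parent, 1 member was higher and 1 lower with a pseudocount of 1 or a mean of at least 5 RPKM. At 1.5-fold, subclone 1 had 2 members above and 3 below the parent, and 1 was lower in subclone 2 than in subclone 1.

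Over all genes, subclone 1 had 557 above and 207 below the parent, subclone 2 had 606 above and 246 below it, and 161 were above and 158 below in subclone 2 against subclone 1. In the same order the counts came to 347 and 117, 380 and 150, and 80 and 77 at a pseudocount of 1, 1523 and 884, 1553 and 941, and 842 and 902 with no filter, 233 and 71, 253 and 93, and 43 and 46 with a mean of at least 5 RPKM, and 1317 and 848, 1444 and 830, and 540 and 467 at 1.5-fold. Division by ACTB gave 328 genes lower in subclone 1, moved the median of all genes to -0.13 there and to 0.16 between the subclones, and took the share of higher genes among those past 2-fold from 72.9% to 57.8% and from 50.5% to 63.9%. Division by GAPDH moved the median between the subclones to 0.15 and that share to 62.6%. The genes counted were 11370, except 16149 with no filter and 8211 with a mean of at least 5 RPKM.

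Depth limits HBEGF and BTC most, with 10 to 27 and 14 to 20 reads. No paired analysis was possible because there was 1 library per line, and leaving out a library was not possible for the same reason.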
